A study of Mus musculus with 16 samples.

Results

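The genes described here are 10 genes of fibroblast identity and activation in mouse hamstring muscle, taken by symbol from the 26382 genes of the deposited table. They are *Pdgfra*, *Pdgfrb*, *Pi16* and *Thy1*, which mark fibroblast progenitors and mesenchymal cells, and *Fap*, *Acta2*, *Postn*, *Tnc*, *Fn1* and *Tgfb1*, which are used as signs of fibroblast activation. All 10 were among the 16414 genes with a mean of at least 0.5 normalized counts that entered the tests.

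The study examined a mouse model of myositis raised with recombinant histidyl-tRNA synthetase (HRS, also called Jo-1), an autoantigen of human inflammatory muscle disease. Hamstring RNA was sequenced in bulk, and 16 libraries from 9 mice were analysed. All were female C57BL/6 mice, injected at 8 to 10 weeks of age and sampled 14 days later, and no transgene or deletion is labelled. The HRS legs were the left hamstrings of 5 mice (m862 to m866) given HRS at 3 to 5 mg/mL. The contralateral PBS legs were the right hamstrings of these 5 mice, given phosphate-buffered saline (PBS). The PBS-only legs were both hamstrings of 2 mice (m867 and m868) labelled with PBS alone. The HRS-MBP muscles came from 2 mice (m860 and m861) whose titles name an MBP fusion protein and give no side. These titles give the numbers 2 and 3 mg/mL with no sign between them, whereas the treatment label of the same mice gives HRS at 3 to 5 mg/mL, so the labels do not settle the dose of these mice. The treatment text describes a bilateral injection of 100 µL, whereas the titles give HRS on the left and PBS on the right, and the titles were followed. A contralateral leg belonged to an immunized animal, and the 4 PBS-only libraries were legs of only 2 mice, so p-values from the fit of all libraries measure the spread between legs and not between independent animals.

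Fibro-adipogenic progenitors are resident mesenchymal cells of skeletal muscle, recognised by the platelet-derived growth factor (PDGF) receptor alpha, and they supply matrix during repair. TGF-beta, secreted in a latent form by immune and stromal cells, is a classical signal by which such cells become activated fibroblasts and myofibroblasts. Activated fibroblasts deposit a provisional matrix rich in fibronectin, tenascin-C and periostin.

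The depth implied by the smallest step of the values was 8.595 to 73.9 M reads per library, with the right leg of PBS-only m868 the shallowest, and each of the 10 genes had at least 53 implied reads in every library. Myofibre markers were abundant in all libraries, with a summed level of 33969 to 149523 normalized counts in the HRS legs and 107057 to 179630 in the contralateral legs. Summed macrophage markers were 1269 to 6268 in the HRS legs, 156 to 397 in the contralateral legs, 138 to 290.2 in the PBS-only legs and 5212 to 5559 in the HRS-MBP muscles. The HRS leg of m866 stood apart from the other 4 HRS legs. Its myofibre sum was the highest of its group and its macrophage sum the lowest, so results are given with and without it. The mitochondrial share of the values was 3.41 to 6.29% in the other 4 HRS legs and 5.94 to 6.98% in the HRS-MBP muscles, against 11.1% in the HRS leg of m866 and 9.69 to 13.1% in the 9 PBS libraries, and its part in the results was not tested. Because the tissue was measured whole, fewer cells of a type and less RNA per cell cannot be told apart.

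HRS legs were compared with contralateral PBS legs to see which of the 10 genes differed with the injected antigen. A gene was called when its limma adjusted p (Benjamini-Hochberg over all 16414 genes) was below 0.05 and its absolute log2 fold change was above 1. On this rule 6 of 10 genes rose (*Tnc*, *Postn*, *Fn1*, *Tgfb1*, *Thy1* and *Fap*) and 0 fell, with the larger differences in the matrix genes. Of all tested genes, 16.9% were called higher and 6.27% lower in this comparison. On the adjusted p alone 9 of 10 genes were higher, against 35.1% of all tested genes, and the exception was *Pi16*. With the mouse as a fixed replicate block, *Pdgfrb* and *Acta2* no longer passed it, at limma adjusted p of 0.0557 and 0.0533. The median log2 fold change was 1.45 over the 10 genes and 0.08 over all tested genes.

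**Figure D1:**
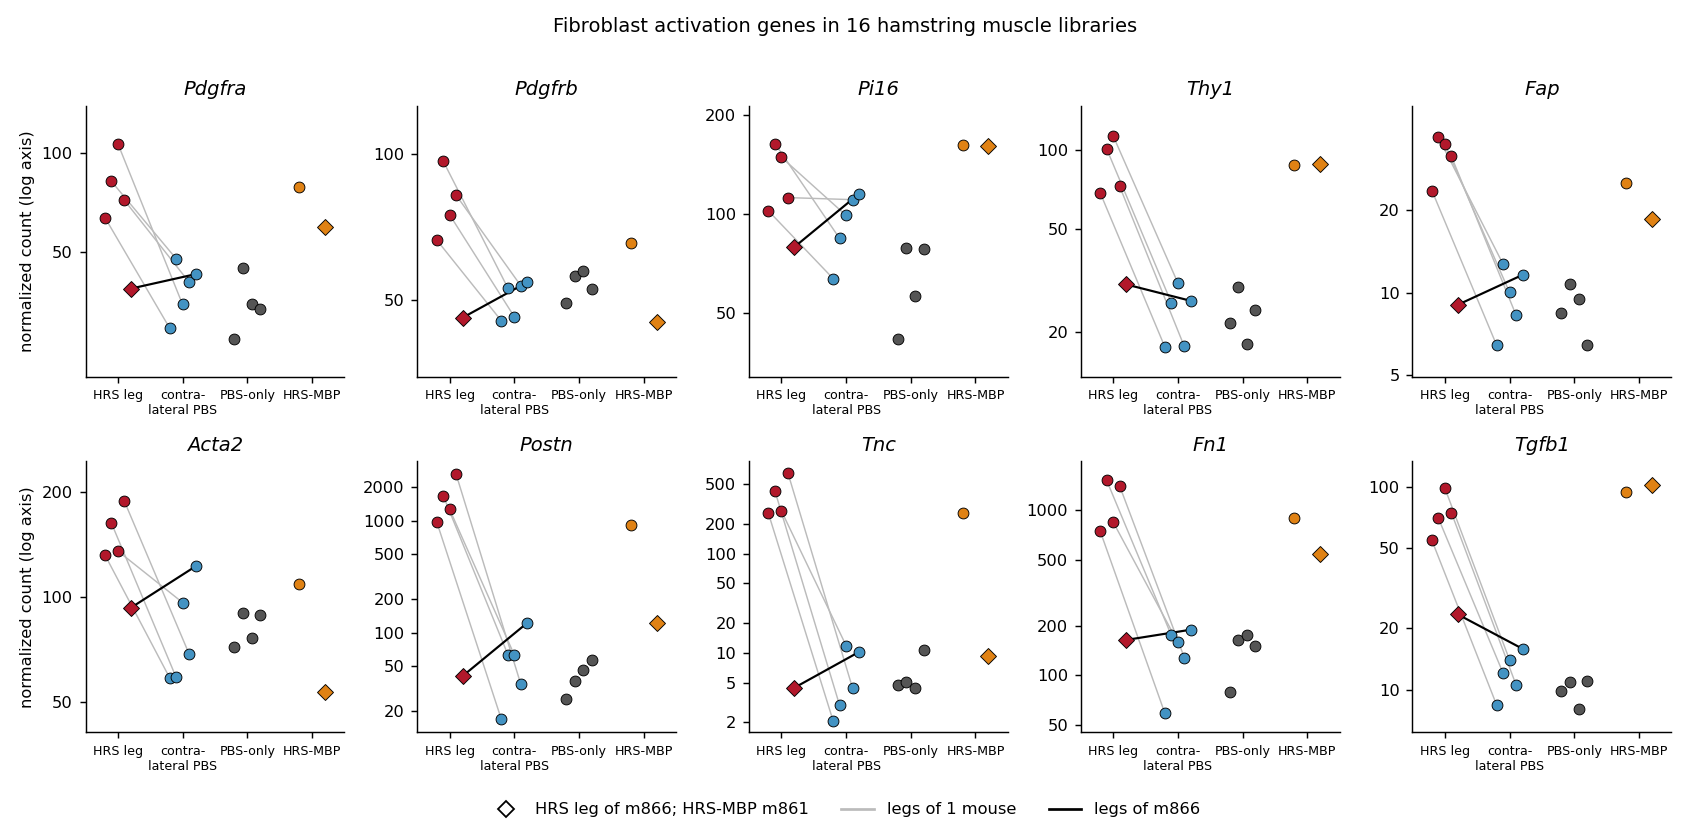
Normalized counts (log axis) of the 10 genes in each of 16 libraries, by group, with the legs of 1 mouse joined by a line and the HRS leg of m866 and HRS-MBP m861 drawn as diamonds. For *Tnc*, *Postn* and *Fn1* the HRS legs of m862 to m865 lie above all PBS libraries and the HRS leg of m866 lies inside their range.

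Tenascin-C (*Tnc*, chr4:63959785-64047015, minus strand, GRCm38), a matrix glycoprotein of wounds and tendon junctions, changed most of the 10 genes. It measured 255, 431, 271, 657 and 4.42 normalized counts in the HRS legs of m862, m863, m864, m865 and m866. In the contralateral legs of the same mice it measured 2.05, 2.95, 11.8, 4.40 and 10.2. The HRS legs of m862 to m865 thus lay far above their own PBS legs, and the HRS leg of m866 lay below its own. PBS-only legs gave 4.73 and 5.12 for the left and right legs of m867, and 4.43 and 10.7 for those of m868. The log2 fold change was 4.81 ± 1.12 (SE, limma adjusted p = 0.00231), the 16th largest rise among all tested genes.

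Periostin (*Postn*, chr3:54361109-54391037, plus strand), a matricellular protein that binds collagen, measured 980.2, 1678, 1263, 2604 and 40.9 normalized counts in the HRS legs of m862 to m866. The contralateral legs gave 16.8, 63.8, 63.2, 34.7 and 122, and the PBS-only legs 25.6 and 37.0 (m867, left and right) and 46.5 and 57.1 (m868). The same 4 HRS legs were high, and in m866 the PBS leg exceeded the HRS leg. Its log2 fold change was 3.90 ± 0.91 (SE, limma adjusted p = 0.00238).

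Fibronectin (*Fn1*, chr1:71585520-71653200, minus strand), a scaffold of the provisional matrix, measured 744, 1506, 844, 1395 and 164 normalized counts in the HRS legs. Contralateral legs held 59.1, 175, 158, 128 and 189, and PBS-only legs 79.5 and 164 (m867) and 175 and 151 (m868). Every HRS leg but that of m866 was above all PBS libraries, the lowest of the 4 by 3.94-fold over the highest PBS library. HRS legs exceeded contralateral legs by 2.48 ± 0.50 on the log2 scale (SE, limma adjusted p = 0.001003). Macrophages also make fibronectin, and the macrophage sums above were also higher in the HRS legs. Of 13 macrophage markers 12 rose and 1 fell, *Cd163* (-1.57 ± 0.26, SE, limma adjusted p = 0.000228), beside 16.9% and 6.27% of all tested genes. In m862 to m865 the macrophage sum and *Fn1* were both higher in the HRS leg. In m866 the macrophage sum was 1269 in the HRS leg and 374 in the PBS leg, while *Fn1* was 164 and 189. The part of macrophages in the *Fn1* result was not tested.

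Some tendon markers were also higher in the HRS legs. The summed level of the list was 98.9 to 630.1 normalized counts in the HRS legs, 49.0 to 115 in the contralateral legs and 35.5 to 148 in the PBS-only legs, and 4 of 9 tested tendon markers rose between HRS and contralateral legs (*Thbs4*, *Col11a1*, *Tnmd* and *Comp*), while the other 5 were not called, beside 16.9% of all tested genes called higher. *Thbs4* made up most of the sum, with a mean of 332 in the HRS legs and 56.5 in the contralateral legs. *Thbs4* measured 69.4 to 524 in the HRS legs and 25.4 to 73.3 in the contralateral legs, and *Scx* 3.68 to 17.1 and 3.48 to 6.70. *Fmod*, which was not called, measured 19.0 to 54.5 and 13.4 to 33.1. None of the 10 listed tendon markers was at 0 in a library. The lowest tendon sum among the HRS legs was again that of m866. The part of tendon in the *Tnc* and *Postn* results was not tested.

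Because *Tnc*, *Postn* and *Tgfb1* rose and *Pdgfra* was not called, the 250 bases before their annotated starts are shown side by side, from RefSeq on GRCm38.p6, 5′ to 3′ in gene direction. The windows are chr4:64047016-64047265 (minus strand) for *Tnc*, chr3:54360857-54361106 (plus) for *Postn*, chr7:25686752-25687001 (plus) for *Tgfb1* and chr5:75152001-75152250 (plus) for *Pdgfra*. Capitals mark matches, on both strands, to a TATA box (TATAAA), an AP-1 site (TGANTCA), a TEAD site (CATTCC), a SMAD element (CAGACA), an E-box (CANNTG) or a CArG box, and no matches in these windows overlap. RefSeq entries were matched for 6 of 10 genes, *Acta2* and *Pi16* included.
Tnc: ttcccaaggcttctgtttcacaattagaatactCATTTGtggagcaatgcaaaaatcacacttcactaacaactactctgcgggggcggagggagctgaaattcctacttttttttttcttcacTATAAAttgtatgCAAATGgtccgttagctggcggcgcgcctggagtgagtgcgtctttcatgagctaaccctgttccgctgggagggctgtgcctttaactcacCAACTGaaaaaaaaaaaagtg
Postn: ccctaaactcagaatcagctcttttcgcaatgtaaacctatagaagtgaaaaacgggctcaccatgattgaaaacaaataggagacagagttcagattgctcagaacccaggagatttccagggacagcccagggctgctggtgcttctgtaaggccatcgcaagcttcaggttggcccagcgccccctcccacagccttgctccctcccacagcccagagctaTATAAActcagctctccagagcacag
Tgfb1: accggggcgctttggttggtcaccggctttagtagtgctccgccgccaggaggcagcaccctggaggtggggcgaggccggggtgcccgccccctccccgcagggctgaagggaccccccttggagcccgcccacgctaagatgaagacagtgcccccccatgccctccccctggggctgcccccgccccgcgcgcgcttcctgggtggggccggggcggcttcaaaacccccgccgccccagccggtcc
Pdgfra: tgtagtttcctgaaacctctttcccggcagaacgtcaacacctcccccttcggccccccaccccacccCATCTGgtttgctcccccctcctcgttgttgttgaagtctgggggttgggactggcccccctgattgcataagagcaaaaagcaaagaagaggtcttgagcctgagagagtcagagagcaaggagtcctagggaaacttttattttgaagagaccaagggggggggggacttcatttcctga
*Postn* held TATAAA with its first base 26 bases before the start and *Tnc* held it at 126 bases, whereas these letters were not in the *Tgfb1* and *Pdgfra* windows. They stood in 12.4% of the 32851 windows of this length. *Tnc* held 3 E-boxes, at 217, 113 and 21 bases before the start, and *Pdgfra* held 1, at 182 bases. An E-box stood in 66.2% of all windows. The AP-1 letters (6.75% of windows), TEAD letters (12.6%), SMAD letters (17.1%) and CArG box (1.47%) were in 0 of the 4 windows.

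*Tgfb1* (chr7:25687002-25705077, plus strand), which encodes the TGF-beta 1 ligand, separated the legs in every mouse. The HRS legs of m862 to m866 measured 54.3, 69.9, 98.4, 74.5 and 23.5 normalized counts. Their PBS legs measured 8.40, 12.05, 14.0, 10.6 and 15.9, and the PBS-only legs 9.83 and 10.9 (m867) and 8.02 and 11.0 (m868). The HRS legs overlapped neither PBS group, that of m866 included. The log2 fold change was 2.24 ± 0.29 (SE, limma adjusted p = 2.61e-05). It was the 1 gene of 10 whose HRS legs all lay above the contralateral legs, as did 18.3% of all tested genes. An exact two-sided permutation test of the 5 against 5 legs gave p = 0.00794, the smallest that this number of legs allows. Macrophages and T cells also make TGF-beta 1, and their marker sums were also higher in the HRS legs than in the contralateral legs. Their part in the result was not tested.

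*Thy1* (chr9:44043384-44048579, plus strand) encodes a surface glycoprotein of fibroblasts that mouse T cells also carry. It measured 68.6, 101, 114, 72.8 and 30.6 normalized counts in the HRS legs of m862 to m866. Contralateral legs measured 17.6, 26.0, 31.0, 17.7 and 26.4, and PBS-only legs 21.8 and 29.8 (m867) and 17.99 and 24.4 (m868). The HRS leg of m866 fell just under the highest contralateral leg, that of m864, and the lowest of the other 4 was 2.22-fold above it. This gave a log2 fold change of 1.59 ± 0.28 (SE, limma adjusted p = 0.000397). Summed T cell markers, from 12 genes other than *Thy1*, were 29.0 to 181 in the HRS legs, 5.00 to 6.73 in the contralateral legs, 4.01 to 5.49 in the PBS-only legs and 142 to 199 in the HRS-MBP muscles, and 11 of 12 rose between HRS and contralateral legs, beside 16.9% of all tested genes. *Cd4* measured 4.05 to 40.5 in the HRS legs and 0.449 to 0.878 in the contralateral legs, and *Lck* 5.55 to 25.3 and 0.128 to 0.462. *Cd3g*, *Cd5*, *Cd6*, *Cd8a* and *Cd8b1* were at 0 in at least 1 library. The part of T cells in the *Thy1* result was not tested.

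*Fap* (chr2:62500943-62574075, minus strand), a surface protease of activated fibroblasts, measured 23.5, 36.8, 34.7, 31.4 and 9.04 normalized counts in the HRS legs. It measured 6.44, 12.7, 10.0, 8.29 and 11.6 in the contralateral legs, and 6.43 to 10.8 in the PBS-only legs. The 4 HRS legs other than m866 were above all PBS libraries, and m866 was inside their range. Its log2 fold change was 1.31 ± 0.31 (SE, limma adjusted p = 0.00253).

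*Acta2*, smooth muscle actin, is the usual marker of myofibroblasts and is also abundant in vessel walls. It measured 132, 163, 135, 188 and 92.9 normalized counts in the HRS legs of m862 to m866, and 58.5, 58.7, 96.1, 68.5 and 122 in the contralateral legs. PBS-only legs gave 71.9 and 89.7 (m867) and 75.9 and 88.8 (m868). The HRS legs of m862 to m865 were higher than all PBS libraries, but the lowest only by 1.08-fold, since the PBS leg of m866 was high. The log2 fold change of 0.83 ± 0.24 (SE, limma adjusted p = 0.00755) was below the limit of 1, so *Acta2* was not called.

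Smooth muscle and pericyte markers, summed without *Acta2* and *Pdgfrb*, were 679 to 1670.3 normalized counts in the HRS legs and 1380.5 to 1928 in the contralateral legs. Of 13 tested, 0 rose and 2 fell, beside 16.9% and 6.27% of all tested genes, and those that fell were *Synpo2* (-1.08 ± 0.28, SE, limma adjusted p = 0.004) and *Lmod1* (-1.77 ± 0.34, limma adjusted p = 0.000719). *Synpo2*, which myofibres also make, carried most of the fall of the sum, with a mean of 488 in the HRS legs and 958 in the contralateral legs, and m866 had 890.5 in its HRS leg. *Rgs5* (-0.66) and *Abcc9* (-0.94) were not called, nor were *Notch3* (0.30), *Cspg4* (0.30), *Mcam* (0.31) and *Ndufa4l2* (0.28), whose log2 fold changes had the opposite sign. None of the 13 markers was at 0 in a library. The part of vessel cells in the *Acta2* and *Pdgfrb* results was not tested.

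The PDGF receptors and *Pi16* differed less. *Pdgfra*, which marks fibro-adipogenic progenitors (chr5:75152292-75198215, plus strand), measured 63.7, 82.0, 107, 71.9 and 38.8 normalized counts in the HRS legs and 29.5, 47.9, 34.8, 40.7 and 43.0 in the contralateral legs. In the PBS-only legs it ranged from 27.3 to 44.9. Its log2 fold change was 0.83 ± 0.22 (SE, limma adjusted p = 0.00513), which passed the p but not the fold limit. *Pdgfrb*, the receptor of pericytes and other mesenchymal cells, measured 66.5, 96.9, 75.0, 82.3 and 45.9 in the HRS legs, 45.2 to 54.4 in the contralateral legs and 49.2 to 57.4 in the PBS-only legs. Its log2 fold change of 0.50 ± 0.16 (SE, limma adjusted p = 0.0154) was also under the fold limit. For both receptors the HRS legs of m862 to m865 lay above every PBS library and that of m866 lay among them.

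*Pi16*, a marker of adventitial progenitor-like fibroblasts, passed neither limit. It measured 102, 164, 149, 112 and 79.4 normalized counts in the HRS legs and 63.7, 84.4, 99.1, 111 and 115 in the contralateral legs, and these groups overlapped widely. PBS-only legs measured 41.7 and 78.7 (m867) and 56.3 and 78.5 (m868), below all HRS legs but overlapping the contralateral legs. The log2 fold change between HRS and contralateral legs was 0.34 ± 0.22 (SE, limma adjusted p = 0.192).

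Since each of the 5 mice gave an HRS and a PBS leg, the leg difference was also taken within each mouse. In m862, m863, m864 and m865 all 10 genes were higher in the HRS leg, as were 42.8% of all tested genes. In m866 only *Thy1* and *Tgfb1* of the 10 were higher, by 0.21 and 0.55 on the log2 scale, although 65.8% of all tested genes were higher in the HRS leg of this mouse. *Thy1* and *Tgfb1* were thus higher in 5 of 5 mice, as were 26.3% of all tested genes. For each of these genes the exact sign-flip permutation test gave the smallest p that 5 mice allow, which cannot reach 0.05.

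Without m866, mean leg differences over 4 mice were 6.29 ± 1.23 (SD) for *Tnc* and 5.26 ± 0.90 for *Postn* on the log2 scale. They were 3.15 ± 0.54 for *Fn1*, 2.66 ± 0.13 for *Tgfb1*, 1.94 ± 0.06 for *Thy1* and 1.72 ± 0.16 for *Fap*. The smaller means were 1.14 ± 0.46 for *Acta2*, 1.07 ± 0.38 for *Pdgfra*, 0.68 ± 0.14 for *Pdgfrb* and 0.56 ± 0.39 for *Pi16*. *Thy1* varied least between these 4 mice, from 1.86 to 2.01, whereas *Tnc* ranged from 4.46 in m864 to 7.07 in m865. *Pi16* was nearly equal in both legs of m865, with a difference of 0.02.

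**Figure D2:**
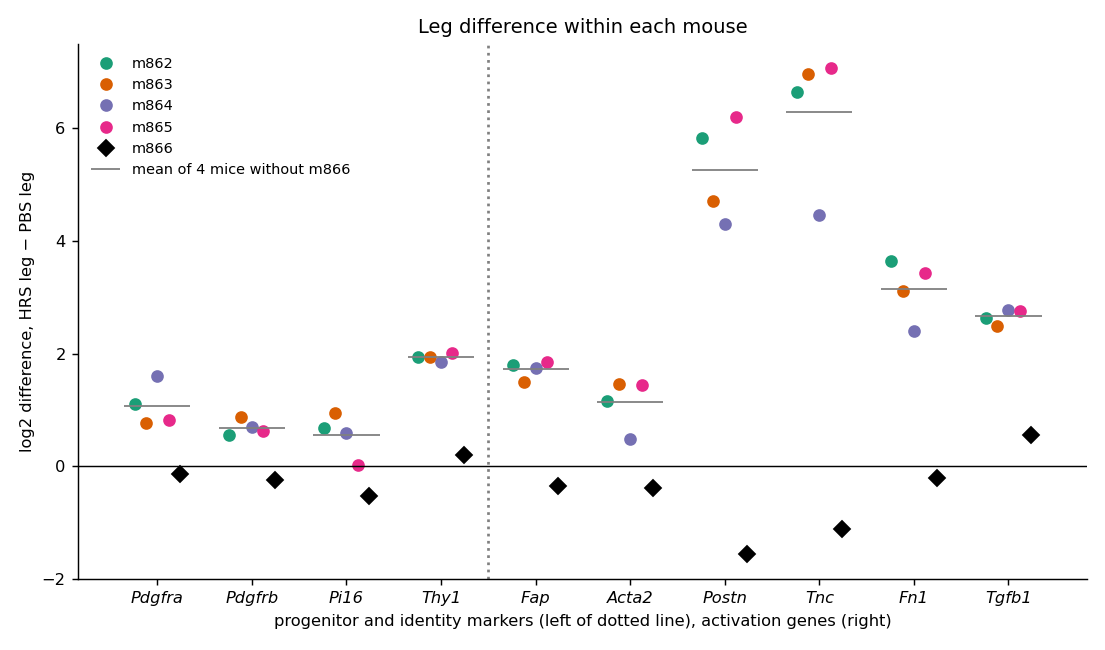
Log2 difference between the HRS and the PBS leg of each of 5 mice for the 10 genes, with bars for the mean of 4 mice without m866. The 4 *Tnc* points lie between 4.46 and 7.07 and the 4 *Thy1* points between 1.86 and 2.01, while m866 (diamond) is below 0 for 8 of 10 genes.

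Calls depended on single mice. When only the HRS leg of m866 was left out of the fit, 7 of 10 genes were called, *Pdgfra* being added at 1.03, with 29.6% of all tested genes called in either direction (23.2% with it). When both legs of m866 were left out with the mouse as a block, 8 were called, against 31.8% of tested genes. When instead both legs of m862, m863, m864 or m865 were left out in that blocked fit, 2 genes were called each time, *Thy1* and *Tgfb1*, and calls over all tested genes fell as well, to 9.47%, 9.83%, 10.5% and 9.53%. *Tnc*, *Postn*, *Fn1* and *Fap* then had limma adjusted p of 0.0653 to 0.111, with log2 fold changes still above 1.

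The HRS leg of m866 was inside the range of the 9 PBS libraries for 9 of 10 genes and above it for *Tgfb1* alone. Of all tested genes, 76.4% were inside that range in this leg and 20.6% were above it. All 12 T cell markers and 11 of 13 macrophage markers were above the 9 PBS libraries in the same leg, as were 9 of 29 other activated fibroblast genes. In the other 4 HRS legs, 9 of 10 genes were above all 9 PBS libraries in every leg, as were 31.4% of tested genes, and the exception was *Pi16*.

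To compare progenitor markers with activation genes, the mean log2(normalized count + 0.5) of *Pdgfra*, *Pdgfrb*, *Pi16* and *Thy1* was set against that of the 6 activation genes in each library. In m862 to m866 the HRS legs had progenitor means of 6.22, 6.75, 6.76, 6.39 and 5.53 and activation means of 7.48, 8.12, 7.83, 8.32 and 4.902. In the contralateral legs progenitor means were 5.15, 5.62, 5.57, 5.52 and 5.71 and activation means 3.87, 4.75, 5.13, 4.53 and 5.42. Activation means exceeded progenitor means in 4 of 5 HRS legs and in 0 of 9 PBS libraries. Activation minus progenitor means averaged 1.002 ± 0.96 (SD, n = 5) in the HRS legs, -0.78 ± 0.41 (SD, n = 5) in the contralateral legs and -0.68 ± 0.15 (SD, n = 4) in the PBS-only legs. Within mice, the progenitor mean was higher in the HRS leg by 0.87 to 1.19 in m862 to m865 and the activation mean by 2.697 to 3.80. In m866 the leg differences were -0.18 and -0.51. Of the 4 progenitor markers, *Thy1*, which mouse T cells also carry, differed most in m862 to m865, by 1.86 to 2.01. The part of T cells in the progenitor mean was not tested. The progenitor and activation means describe genes picked with the data known and carry no test.

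**Figure D3:**
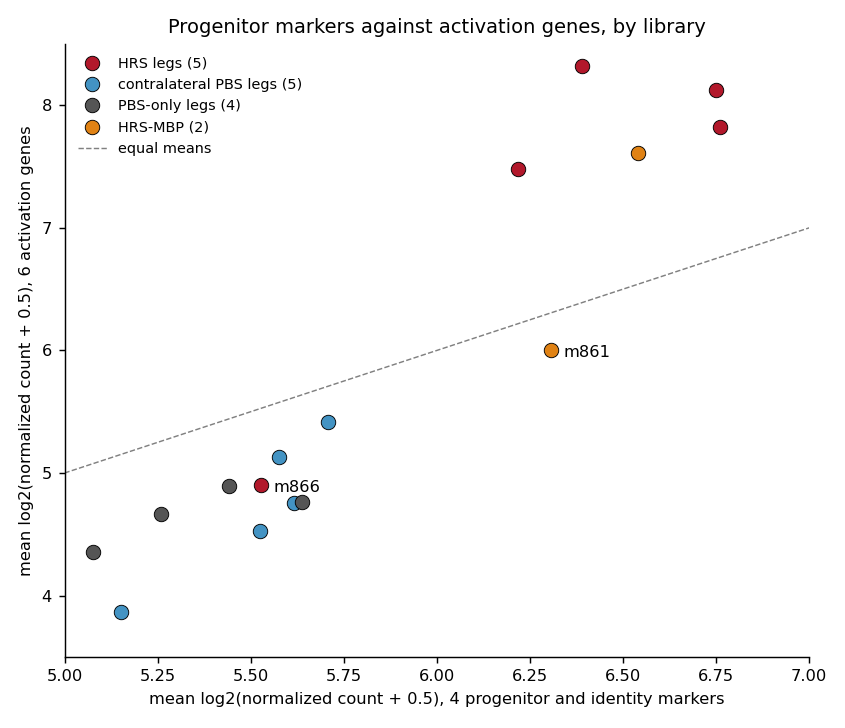
Mean log2(normalized count + 0.5) of 4 progenitor and identity markers (horizontal) and of 6 activation genes (vertical) in each of 16 libraries, with a dashed line where both are equal. The HRS legs of m862 to m865 and HRS-MBP m860 lie above the line, and the HRS leg of m866 and HRS-MBP m861 lie below it.

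Activation genes did not keep 1 proportion to *Pdgfra*. The log2 ratio of *Tnc* to *Pdgfra* averaged 1.18 ± 2.43 (SD, n = 5) in the HRS legs and -2.80 ± 0.99 in the contralateral legs, and that of *Postn* 3.42 ± 1.96 and 0.35 ± 0.90. The ratio of *Fn1* was 3.41 ± 0.92 and 1.76 ± 0.48, and that of *Tgfb1* -0.25 ± 0.29 and -1.66 ± 0.30. For *Acta2* it was 0.998 ± 0.40 and 0.99 ± 0.50, well within the spread between legs. *Fap* lay at -1.48 ± 0.37 and -1.96 ± 0.20. Without the HRS leg of m866, whose ratios were -3.00 for *Tnc* and 0.08 for *Postn*, the HRS means were 2.23 ± 0.77 (SD, n = 4) for *Tnc*, 4.25 ± 0.69 for *Postn*, 3.74 ± 0.61 for *Fn1* and -0.13 ± 0.13 for *Tgfb1*. They were 0.94 ± 0.43 for *Acta2* and -1.34 ± 0.22 for *Fap*.

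HRS legs were also set against PBS-only legs, from mice that received no HRS. This comparison shares the HRS libraries with the one above and is not independent of it. *Tnc*, *Postn*, *Fn1*, *Tgfb1*, *Thy1* and *Fap* rose, 6 of 10 genes, against 18.9% of all tested genes called higher. The log2 fold changes were 4.63 ± 1.19 (SE) for *Tnc*, 4.20 ± 0.97 for *Postn*, 2.50 ± 0.30 for *Tgfb1* and 2.43 ± 0.53 for *Fn1*, with limma adjusted p from 1.60e-05 to 0.00411. Without the HRS leg of m866 they were 5.88 for *Tnc*, 5.24 for *Postn*, 2.82 for *Tgfb1* and 2.97 for *Fn1*. *Thy1* was higher by 1.59 ± 0.30 (limma adjusted p = 0.000544) and *Fap* by 1.45 ± 0.33 (limma adjusted p = 0.00199). *Pi16*, at 0.92 ± 0.23, and *Pdgfra*, at 0.98 ± 0.24, stayed just under the fold limit (limma adjusted p = 0.00398 and 0.00273). On the adjusted p alone 9 of 10 genes were higher, *Pdgfrb* (0.40 ± 0.17) being the exception, as were 38.1% of tested genes. *Pi16* and *Pdgfra* were called when the HRS leg of m866 was left out, at 1.06 and 1.19, with 31.1% of tested genes called in either direction. All HRS legs lay above all PBS-only legs for *Pi16*, *Thy1*, *Acta2* and *Tgfb1*, 4 of 10 genes, as they did for 26.6% of tested genes.

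Contralateral PBS legs were compared with PBS-only legs to see whether the PBS side of an immunized mouse differed. Limma called 0 of the 10 genes, against 0.00609% of tested genes, and limma-voom called 0 as well. *Pi16* was the 1 gene with an unadjusted p below 0.05. It measured 94.6 ± 20.99 normalized counts (SD, n = 5) in the contralateral legs and 63.8 ± 18.1 (SD, n = 4) in the PBS-only legs, a log2 difference of 0.58 ± 0.23 (SE, limma adjusted p = 0.851). *Tnc* measured 6.28 ± 4.43 and 6.24 ± 2.97, *Fn1* 142 ± 51.4 and 143 ± 43.1, and *Thy1* 23.7 ± 5.91 and 23.5 ± 4.96. *Postn* measured 60.2 ± 40.1 and 41.6 ± 13.5, and its highest PBS value, 122, was in the PBS leg of m866. That leg also had the highest adipocyte sum of the 16 libraries, 4212 normalized counts against a median of 872 in its group, and its part in the *Postn* level was not tested.

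In the HRS-MBP muscles, 6 of 10 genes rose against PBS-only legs, where 20.7% of all tested genes were called higher. *Tgfb1* measured 94.1 in m860 and 102 in m861, a log2 fold change of 3.25 ± 0.39 (SE, limma adjusted p = 1.34e-05). *Thy1* measured 87.9 and 88.5 (1.91 ± 0.39, limma adjusted p = 0.000984) and *Pi16* 162 and 161 (1.38 ± 0.30, limma adjusted p = 0.00174). *Fap* measured 25.1 and 18.6 (1.27 ± 0.42, limma adjusted p = 0.0189) and *Fn1* 887 and 544 (2.34 ± 0.69, limma adjusted p = 0.00967). The *Fap* call was lost in 3 of 18 alternatives (limma adjusted p of up to 0.142) and the *Fn1* call in 1, without m860 (limma adjusted p = 0.0928). For these 5 genes both muscles lay above all PBS libraries. Both lay above all PBS-only legs for 7 of 10 genes, *Postn* and *Pdgfra* included, as they did for 39.8% of tested genes.

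*Postn*, *Tnc* and *Acta2* differed most between the HRS-MBP mice. *Postn* measured 907 in m860 and 123 in m861, a ratio of 7.39, and its log2 fold change of 3.05 ± 1.25 (SE) passed narrowly (limma adjusted p = 0.0481). This call was lost in 10 of 18 alternatives, with log2 fold changes of 1.61 to 4.49 and limma adjusted p of up to 0.422. *Tnc* measured 259.6 and 9.34, a ratio of 27.8, and was not called (3.00 ± 1.54, limma adjusted p = 0.106). Its values under the alternatives ran from 0.63 to 5.36, and it was called in 2 of 18, in the fit of these groups alone and without m861. *Acta2* measured 109 and 53.1, so that m861 was below all 9 PBS libraries, and its log2 fold change was -0.09 ± 0.33, or 0.37 when values were scaled to the library total. *Pdgfrb* measured 65.4 and 45.0 and *Pdgfra* 79.0 and 59.5, and neither was called.

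In m860, 9 of 10 genes were above all 9 PBS libraries, as were 39.1% of tested genes. In m861, 7 of 10 were above (36.7% of tested genes) and 2 below (31.7%). T cell sums were 142 in m860 and 199 in m861, macrophage sums 5559 and 5212, and tendon sums 338 and 126. Their part in the *Tnc* and *Postn* split was not tested. Leaving out m860 left 3 genes called, against 26.2% of tested genes, and leaving out m861 left 8, against 28.0%.

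Between HRS-MBP muscles and HRS legs limma called 0 of the 10 genes, against 0.463% of tested genes, and limma-voom called 0. The smallest limma adjusted p was 0.242, for *Acta2* (-0.86 ± 0.32, SE), the 1 gene with an unadjusted p below 0.05. With 2 muscles in a group, standard errors reached 1.48 for *Tnc* and 1.21 for *Postn* on the log2 scale, so differences of that size were not resolved. Without the HRS leg of m866 the differences were -2.89 for *Tnc* (limma adjusted p = 0.127) and -2.19 for *Postn* (limma adjusted p = 0.135).

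**Figure D4:**
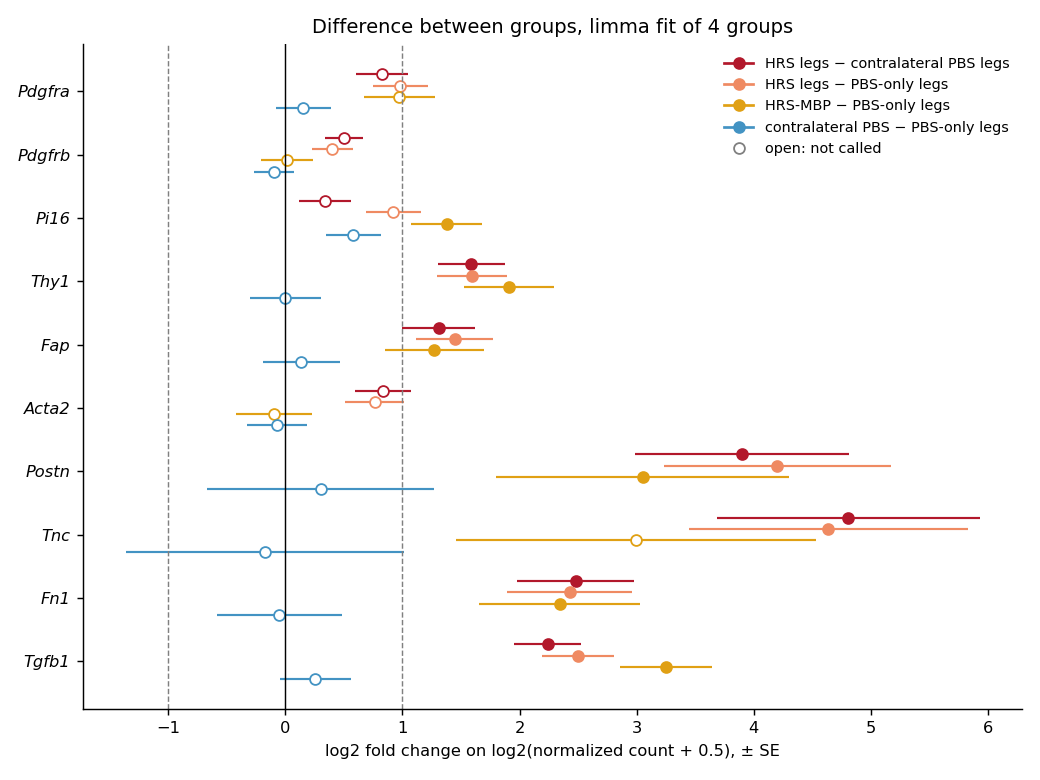
Log2 fold change ± SE of the 10 genes in 4 comparisons of a limma fit of all 16 libraries, filled where the gene was called and with dashed lines at the fold limit of 1. Points for contralateral against PBS-only legs lie near 0, from -0.17 for *Tnc* to 0.58 for *Pi16*, with the widest bars for *Tnc* and *Postn*.

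Levels per kilobase of exon gave the order of the 10 genes in each group. In the contralateral legs the order was led by *Acta2* (36.8 normalized counts per kilobase), *Pi16* (14.9) and *Fn1* (12.1), and ended with *Tgfb1* (2.42), *Fap* (1.73) and *Tnc* (0.808). In the HRS legs it was led by *Postn* (151), *Fn1* (79.6), *Acta2* (64.7) and *Tnc* (41.7), and ended with *Pdgfra* (7.25) and *Fap* (4.78). By these means *Tnc* was lowest in the contralateral legs and in the fourth place in the HRS legs. In the HRS leg of m866 alone it was again the lowest, at 0.569. The coefficient of variation between HRS legs was 71.5% for *Postn*, 58.3% for *Fn1*, 25.1% for *Acta2* and 74.4% for *Tnc*. This is the spread of 1 gene between legs and does not measure the difference between genes within a leg, so the order was not tested. In the contralateral legs the coefficient of variation was lowest for *Pdgfrb*, at 8.69%.

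For each gene the tested genes with the most similar pattern over 16 libraries were found by the root mean square difference of centred log2 values, among 11254 genes with a mean of at least 5. The nearest to *Tnc* were *Lrrc15* (0.52), *Cthrc1* (0.54) and *C1qtnf3* (0.66), and those to *Postn* were *Col12a1* (0.48), *Cthrc1* (0.49) and *Mest* (0.52). *Lrrc15* measured 0.530 in the HRS leg of m866 and 0.445 in HRS-MBP m861, against 83.1 at the highest HRS leg. The nearest to *Fn1* were *Pamr1* (0.28), *Col14a1* (0.29) and *Fstl1* (0.29), and to *Fap* were *Tgfbr2* (0.15), *Islr* (0.19) and *Sh3d19* (0.20). *Tgfb1* was nearest to *Arrb2* (0.15), *Cstb* (0.15) and *Slc7a7* (0.17), and *Thy1* to *Limk1* (0.17), *Abr* (0.21) and *Abhd2* (0.22). *Pdgfra* was nearest to *Plau*, *Heg1* and *Poglut3*, *Pdgfrb* to *Fkbp9*, *Cdon* and *Sipa1l2*, *Pi16* to *Rnase4*, *Adamts5* and *Slc12a4*, and *Acta2* to *Arhgef40*, *Denn2b* and *Cald1*. Among the 10 genes the closest pairs were *Pdgfrb* with *Acta2* (0.32), *Pdgfra* with *Pi16* (0.32) and *Pdgfra* with *Fap* (0.32). Libraries share depth and tissue makeup, so these distances are descriptions.

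Other genes of the pathways were taken from lists and compared between HRS and contralateral legs. Of 29 further activated fibroblast genes tested, 24 rose and 0 fell, beside 16.9% and 6.27% of all tested genes, with a median log2 fold change of 2.30 beside 0.08 for all tested genes. The macrophage markers had a median of 3.12 in the same comparison, and the part of macrophages in the list's result was not tested. *Cthrc1*, a secreted matrix protein, rose by 4.11 ± 0.91 (SE, limma adjusted p = 0.00171), and *Lrrc15*, a marker of TGF-beta-driven fibroblasts, by 4.01 ± 1.03 (limma adjusted p = 0.00408). In the HRS leg of m866 they measured 0.467 and 0.530 normalized counts, within the range of the contralateral legs. Of 21 universal fibroblast progenitor genes, 8 rose and 0 fell (median 0.69), among them *Fbn1*, the fibrillin of microfibrils (1.89 ± 0.38, limma adjusted p = 0.000874), and *Ly6a*, the Sca-1 antigen that lymphocytes and endothelium also carry (1.81 ± 0.25, limma adjusted p = 5.25e-05). Of 13 transcription factors of fibro-adipogenic progenitors, 2 rose and 0 fell, beside 16.9% and 6.27% of all tested genes, with a median of 0.71. Those that rose were *Meox1* (1.62 ± 0.29, limma adjusted p = 0.000443) and *Tbx18* (1.43 ± 0.34, limma adjusted p = 0.00268).

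Among TGF-beta ligands, receptors and latency proteins other than *Tgfb1*, 5 of 18 rose and 0 fell (median 0.71), beside 16.9% of all tested genes called higher and 6.27% called lower. *Nrros*, a latency anchor of myeloid cells, rose by 2.72 ± 0.29 (SE, limma adjusted p = 5.92e-06), and *Thbs1*, an activator of latent TGF-beta, by 2.49 ± 0.51 (limma adjusted p = 0.00107). The receptor *Tgfbr2* rose by 1.37 ± 0.26 (limma adjusted p = 0.000711). Its partner *Tgfbr1* differed by 0.09 ± 0.16 (limma adjusted p = 0.647), and the ligand *Tgfb3* by 0.75 ± 0.25 (limma adjusted p = 0.0162). The ligand *Tgfb2* differed by -0.24 ± 0.12 (limma adjusted p = 0.0894), which turned to 0.17 when values were scaled to the library total. Of 17 intracellular mediators and targets, 5 rose and 0 fell (median 0.41), beside the same shares of all tested genes, among them *Junb* (2.09 ± 0.26, limma adjusted p = 2.09e-05) and *Ltbp2* (1.74 ± 0.59, limma adjusted p = 0.0186), which is in both TGF-beta lists. Under the fold limit, *Smad3*, a mediator, differed by -0.65 ± 0.17 (limma adjusted p = 0.00478), and the inhibitors *Smad6* and *Smad7* by -0.73 ± 0.17 and -0.63 ± 0.16 (limma adjusted p = 0.0021 and 0.0035). All 3 kept a negative sign under quantile scaling and with values scaled to the library total, where they were -0.23, -0.34 and -0.23. The HRS leg was the higher one in 1 of 5 mice for *Smad3* and in 0 of 5 for the other two. These Smad genes lie outside the rule for named genes and were chosen after their values were seen.

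Of the 4 PDGF ligands, which signal through *Pdgfra* and *Pdgfrb*, 0 were called. *Pdgfa* differed by -0.18 ± 0.15 (SE, limma adjusted p = 0.316), or 0.23 when scaled to the library total, and *Pdgfb* by 0.18 ± 0.11 (limma adjusted p = 0.177). *Pdgfc* differed by 0.87 ± 0.32 (limma adjusted p = 0.0276) and *Pdgfd* by 0.41 ± 0.16 (limma adjusted p = 0.0388), both under the fold limit.

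Contractile and myofibroblast genes went both ways, with 7 of 22 higher and 3 lower, beside 16.9% and 6.27% of all tested genes, and a median of 0.05. *Cnn2*, a calponin, rose by 2.17 ± 0.24 (SE, limma adjusted p = 6.46e-06) and *Vim*, the intermediate filament of mesenchymal and blood cells, by 2.08 ± 0.30 (limma adjusted p = 7.61e-05). *Lmod1*, a smooth muscle gene, fell (-1.77 ± 0.34, limma adjusted p = 0.000719), as did *Fhl1*, abundant in myofibres (-1.06 ± 0.23, limma adjusted p = 0.00142). The *Fhl1* call was lost at -0.65 when values were scaled to the library total and at -0.61 under quantile normalization.

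**Figure D5:**
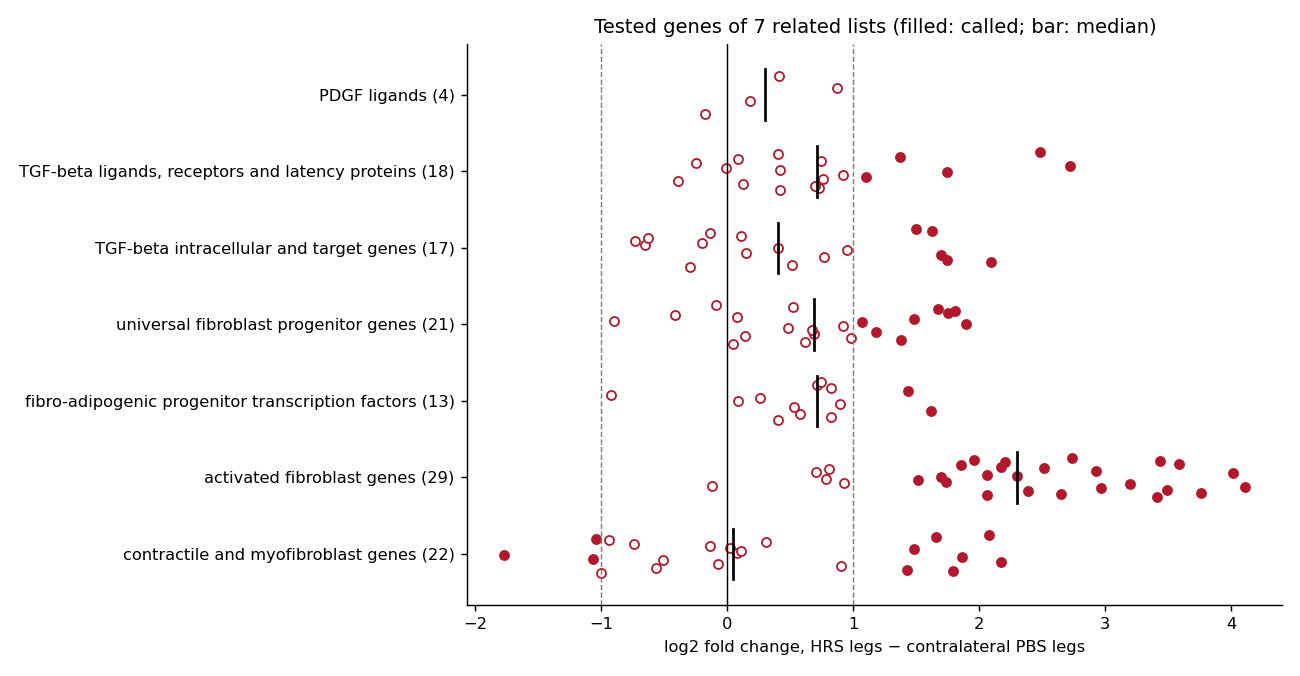
Log2 fold change between HRS and contralateral PBS legs of every tested gene in 7 lists related to the 10 genes, filled where called, with a bar at the list's median. The median of the 29 activated fibroblast genes is 2.30 and that of the 22 contractile genes is 0.05.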

How the data were processed

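Poly(A) RNA of hamstring muscle had been made into directional libraries. The authors deposited 1 table of normalized counts, a linear signal per gene and library that is neither log-transformed nor whole-numbered, and how it was counted and scaled, strand use included, is not given in the sources used here. The submitters' processing notes name STAR 2.7.8a, limma and the build GRCm39, without roles, whereas 99.0% of 25652 genes matched by symbol had the start and end of GENCODE M21 on GRCm38, whose positions are given here. Of the low values, 69.7 to 73.4% were whole multiples of the worth of 1 read (tolerance 0.02 of a step), so no count model was the main test.

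Genes with a mean of at least 0.5 were fitted on log2(value + 0.5) with limma 3.58.1 (mean trend, all 16 libraries in 4 groups) in R 4.3.3, and p-values were adjusted over 16414 genes. Fold changes are on that scale and understate the change of low genes. Leg pairs and 5 against 5 legs were tested by exact two-sided permutation. The scripts were tested on simulated data. Legs of 1 mouse are paired by the animal numbers in the titles, and deviations of same-mouse legs from group means correlated at 0.12, 0.16, 0.10, -0.03 and -0.37 in m862 to m866. Alternatives were the pseudocount, the filter, other scalings, limma-voom, a mouse block and leaving out libraries.

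The 10 genes and the lists were chosen with earlier results of these data known. Beyond the 10, the text takes its genes from the 2 largest called rises and falls of each pathway list, the TGF-beta and PDGF ligands and TGF-beta receptors, the 3 most abundant markers of each cell type and the 3 nearest patterns. Gene symbols were matched to RefSeq for upstream sequence, and tables were handled in Python 3.11.15 with pandas 2.3.3.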

Additional observations from a re-analysis of the deposited data

Results flagged for a closer look

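In 9 of 49 groups of 4 or 5 values tested, the highest or lowest value stood apart from the rest by Dixon's criterion, which chance meets in about 1 of 20 groups. Most of these values belong to m866. On the log2 scale its leg difference stood below those of the other 4 mice for *Pdgfrb* (-0.24), *Thy1* (0.21), *Fap* (-0.34), *Postn* (-1.57) and *Tgfb1* (0.55). Its HRS leg was also the low value of its group for *Postn* (5.37), for *Tnc* (2.30) and for the mean of the 6 activation genes (4.902). In the PBS-only legs, *Tnc* in the right leg of m868, the shallowest library, stood above the other 3 legs (3.48).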

How the results depend on the processing

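Between HRS and contralateral legs, 6 of 10 genes were called with the mouse as a fixed or as a random replicate block, as without a block, and the block changed no call of the 10 genes in any comparison it was run in. Leaving out 1 library, or both legs of 1 mouse, gave 2 to 8 called genes there, the lowest without m862, m863, m864 or m865 in the blocked fit. It gave 3 to 8 between HRS-MBP muscles and PBS-only legs, the lowest without m860, and 2 to 10 genes higher in the HRS leg of every mouse, the highest without m866. The cause was not tested. Over all alternatives, 6 to 9 genes were called between HRS and PBS-only legs, and 0 in the comparisons that had 0. Of 1050 alternative values of single genes, 1000 stayed on their side of the limits, 20 passed them anew and 30 no longer did. In 39 of these 1000 the sign differed, with neither value called. The HRS minus contralateral difference of activation minus progenitor means was 1.78, and 1.55 to 2.19 under the alternatives. Scaling to the library total raised the all-gene median between HRS and contralateral legs by 0.38 on the log2 scale, and quantile normalization changed it by -0.24, with 8 and 6 of the 10 genes called. The smooth muscle and pericyte list's median turned from -0.17 to 0.14 when scaled to the library total. *Fap*, at 53 implied reads in its shallowest library, had the least depth behind it.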

Other observations

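In the HRS-MBP muscles compared with PBS-only legs, 20 of 29 activated fibroblast genes rose and 0 fell (median log2 fold change 2.05), as did 8 of 21 universal fibroblast progenitor genes, 1 of which fell (median 0.84). Of 13 smooth muscle and pericyte markers 0 rose and 5 fell, and of 22 contractile genes 7 rose and 2 fell. All 12 T cell markers rose, with a median of 4.08. The background in this comparison was 20.7% of tested genes called higher and 10.2% called lower.

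Among other cell type markers, between HRS and contralateral legs, 0 of 9 endothelial and 0 of 7 glial markers were called, 2 of 7 satellite cell markers and 1 of 3 platelet markers rose, and 7 of 7 adipocyte and 8 of 11 myofibre markers fell, beside 16.9% of tested genes called higher and 6.27% called lower. The contralateral group holds the PBS leg of m866, whose adipocyte sum was 4212 normalized counts, and against PBS-only legs limma called 0 of 7 adipocyte markers (median -1.48, smallest limma adjusted p 0.0702) and 5 of 11 myofibre markers lower, beside 5.87% of tested genes called lower there. The myofibre median of -1.18 became -0.76 when values were scaled to the library total and -0.25 under quantile normalization. Between the 4 PBS-only legs, the highest value was 1.17-fold the lowest for *Pdgfrb* and 2.41-fold for *Tnc*.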
